A study of Mus musculus with 5 samples.

Results

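Ribosomal proteins of the cytosolic ribosome were followed in mouse embryonic stem cells (ESCs). Probes were taken by gene name, as every name made of Rpl or Rps and a number, together with Rpsa, Rplp0, Rplp1, Rplp2 and Fau, and without the Rps6k kinases. This gave 83 of the 27962 names on the array, with 138 of its 41174 probes. Of these genes, 45 encode proteins of the large subunit and 32 proteins of the small subunit. The others are the paralogues Rpl3l, Rpl7l1, Rpl22l1, Rpl36al and Rps27l, and Rps19bp1, which has a matching name but encodes a protein that binds Rps19 and is no subunit. For 41 genes there was more than 1 probe.

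The cytosolic ribosome translates nuclear messages. Its small subunit decodes the message and its large subunit joins the amino acids, with the acidic stalk proteins Rplp0, Rplp1 and Rplp2 recruiting translation factors. Most of its proteins are needed in equal number, and dividing cells such as ESCs spend much of their transcription on these genes. Their messages usually begin with a run of C and T letters, the 5′ terminal oligopyrimidine (TOP) tract, through which mTOR signalling adjusts their translation. Several subunits have paralogues that can take their place in some tissues, among them Rpl3l in heart and skeletal muscle and Rpl39l in testis.

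The study asked what disruption of ECAT11, an ESC-associated transcript also known as L1td1, does to ESCs. For 5 lines grown with LIF on gelatin, Cy3-labelled total RNA was measured on Agilent arrays, each line once. The WT lines were RF8 (male label, 129sv origin), the line in which the gene was targeted, and #620-2 (female label, C57BL6/129sv origin). The ECAT11EGFP/EGFP lines, all of C57BL6/129sv origin, were #620-6 (female label), #757-1 and #757-2 (male label). In the ECAT11EGFP/EGFP lines both alleles carry an EGFP-IRES-Puro cassette in place of the coding region, and all lines except RF8 were derived from blastocysts of the knock-in mouse colony. Each line is a replicate, so the tests below set the difference between groups against the spread between lines. Within a genotype that spread includes differences of sex label, and in WT of origin. RF8, #620-2 and #620-6 lay on slide 1, and #757-1 and #757-2 on slide 2. A signal below is the log2 of the background-corrected intensity after division by the 75th percentile of its array, so 0 is the level of that percentile. The number of arrays limits the precision, and no spot was saturated. Slide 1 gave between 26371 and 27144 probes well above background per line, and slide 2 gave 22061 and 21250. All 12 probes of 9 ESC markers, Pou5f1 and Nanog included, were well above background on all 5 arrays. In RNA of whole cultures, fewer cells of a type and less RNA per cell cannot be told apart.

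The start sites of ribosomal protein genes carried C and T runs more often than those of other genes in the RefSeq promoter windows (GRCm38.p6, 300 bases each, from 250 bases before to 50 after the start). Rps19bp1 was left out, and 62 of the other 82 genes had a window. A run was counted where a C was followed by at least 6 letters that were each C or T, and any part of the run lay within 5 bases of the annotated start. Some counted runs thus ended before the start, among them those of Rpl4, Rpl10a and Rps27l. It was present for 27 of the 62 genes, or 43.5%, against 12.2% of all 27025 genes with a window. It was present for 4 of 11 genes of a list of TOP-type translation factors and for 9 of 69 genes of the mitochondrial ribosome. These shares are descriptions of the annotated starts, several of which may lie away from the start used in ESCs. Windows from 10 bases before to 20 after the start show the run in capitals for small subunit genes, for large subunit genes and for the paralogue Rpl22l1.
Rps6, chr4:86857348-86857377, minus strand: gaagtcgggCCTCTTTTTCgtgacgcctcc
Rps15a, chr7:118116128-118116157, minus strand: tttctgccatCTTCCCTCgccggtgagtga
Rps18, chr17:33955646-33955675, minus strand: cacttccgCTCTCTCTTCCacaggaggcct
Rps27, chr3:90213629-90213658, minus strand: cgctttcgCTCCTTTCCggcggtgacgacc
Fau, chr19:6057937-6057966, plus strand: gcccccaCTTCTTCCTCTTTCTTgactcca
Rpl15, chr14:18270967-18270996, minus strand: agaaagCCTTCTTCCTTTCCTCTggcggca
Rpl28, chr7:4792955-4792984, plus strand: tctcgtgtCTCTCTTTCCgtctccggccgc
Rpl35, chr2:39005112-39005141, minus strand: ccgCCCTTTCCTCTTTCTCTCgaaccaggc
Rpl38, chr11:114668570-114668599, plus strand: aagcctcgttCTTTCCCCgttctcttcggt
Rplp2, chr7:141447641-141447670, plus strand: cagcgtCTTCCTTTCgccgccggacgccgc
Rpl22l1, chr3:28805498-28805527, plus strand: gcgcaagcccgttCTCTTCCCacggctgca

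No such run was found at the annotated starts of the X-linked genes Rpl10, Rpl36a, Rpl39 and Rps4x, or of Rpl36al, the autosomal paralogue of Rpl36a. Their windows are shown because their signals are compared between lines labelled female and male below.
Rpl10, chrX:74270806-74270835, plus strand: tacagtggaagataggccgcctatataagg
Rpl36a, chrX:134585644-134585673, plus strand: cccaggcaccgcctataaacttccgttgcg
Rpl39, chrX:37085203-37085232, minus strand: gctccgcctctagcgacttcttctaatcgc
Rps4x, chrX:102189372-102189401, minus strand: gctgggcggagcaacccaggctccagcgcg
Rpl36al, chr12:69184048-69184077, minus strand: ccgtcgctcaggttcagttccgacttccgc

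Literal strings were also searched on both strands of the 300 bases. CTCTTTC, which lies inside some of the runs above, was found for 30.6% of the 62 genes and for 9.28% of all genes. CCGGAAG, the core bound by ETS factors such as GABP, was found for 38.7% and 9.93%. The mitochondrial ribosomal protein genes held CCGGAAG in 37.7% and CTCTTTC in 5.80%. AAGATGGC, which contains the core bound by YY1, was found for 11.3% of the ribosomal protein genes, for 17.4% of the mitochondrial ones and for 3.19% of all genes. Shares of CCGGAAG were alike for both kinds of ribosome, and those of CTCTTTC and of the run at the start were higher for the cytosolic one. A match to any of these strings describes the letters of the window and is no evidence of a site.

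Ribosomal protein transcripts were detected in every line. Of the 138 probes, 134 were well above background on all 5 arrays, and each of the 83 genes had such a probe. The brightest probe of 71 of the 77 subunit genes had a mean signal over 5, and the lowest of these 77 means was 1.09. The brightness of different probes depends on the probes as well, so no order of the genes is read from it. The 4 probes that were not well above background throughout belong to Rpl35a, Rps2, Rps6 and Rps19, and each was a further probe of a gene that another probe detected in all lines. The Rpl35a probe was well above background on 4 arrays, the Rps2 probe in #757-2 alone, the Rps6 probe in #620-2 alone and the Rps19 probe in no line, so that 137 probes entered the tests.

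The signals of ribosomal proteins differed little between lines. The range of a probe over the 5 lines had a median of 0.27 on the log2 scale for the 134 member probes, against 0.60 for all 20622 probes well above background on all 5 arrays. It stayed under 0.5 for 114 member probes (85.1%) and for 39.6% of all such probes. It exceeded 1 for 3 members. Bright probes vary less, and the gap was smaller among them, at a limit of brightness chosen after the values were seen. Over the 97 members with a mean signal over 5 the median range was 0.24, and over the 793 other probes of that brightness it was 0.30. The 37 dimmer members had a median range of 0.44.

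Rplp0, the base of the stalk, shows how far the error of a spot reaches. Its probe was spotted 10 times on each array, and the 7 spots never marked by the extraction had SDs between 0.02 and 0.04. Their means were 6.11 in RF8, 6.18 in #620-2, 6.02 in #620-6, 6.42 in #757-1 and 6.14 in #757-2. The excess of #757-1 over the other lines was larger than the spread between spots, which is a technical error within arrays and leaves out that between cultures. This probe maps to another chromosome than the Rplp0 gene. Further Rplp0 probes, which map to the chromosome of the gene and carry another name, were highest in #757-1 too. They gave 7.25 and 7.87 there, against 7.19 and 7.71 in #757-2, the next line.

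A shared upward shift in #757-1 was the main pattern over the members. With each probe set to its own mean over the lines, the 134 probes had medians of -0.05 in RF8 and #620-6, -0.02 in #620-2, 0.02 in #757-2 and 0.12 in #757-1. The medians over all 20622 probes lay between -0.03 and 0.02. #757-1 had the highest signal for 83 of the 134 probes (61.9%), against 21.4% of all probes. The pattern was weaker after quantile normalization, with 42 of the 134 probes highest in #757-1 and a median there of 0.04. #757-2, on the same slide and of the same line number, was highest for 17 probes. RF8 had the highest signal for 6 probes, or 4.48% against 24.9% of all probes, and for 22 after quantile normalization. It had the lowest for 43, or 32.1% against 21.3%.

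**Figure D1:**
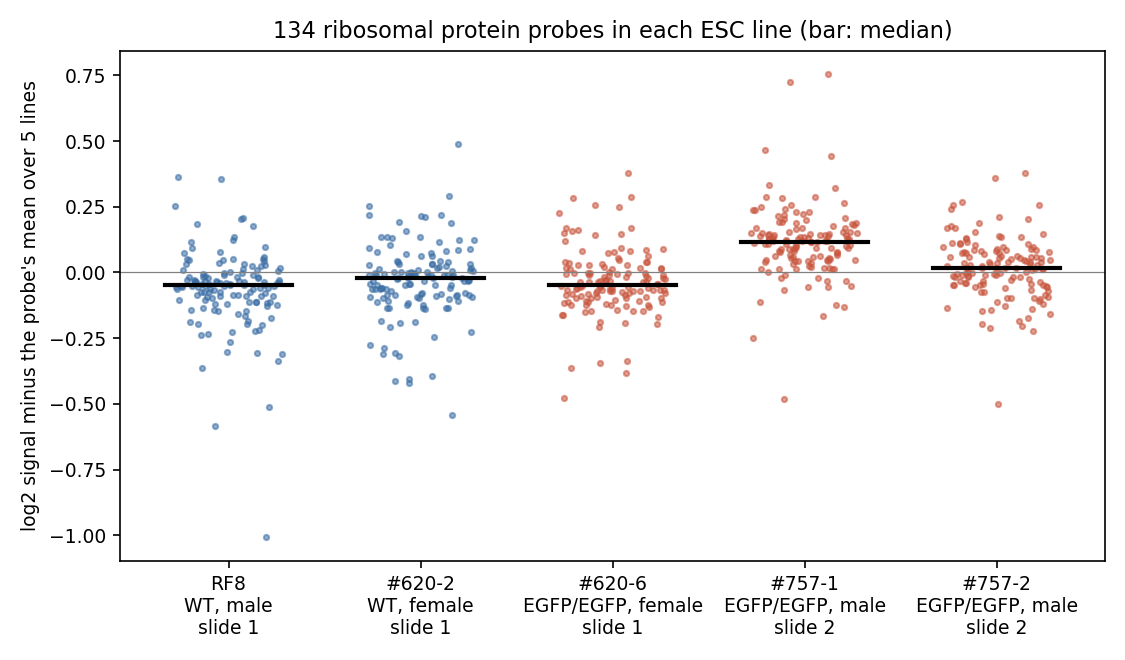
Log2 signal of the 134 ribosomal protein probes well above background on all 5 arrays, each minus its mean over the lines (vertical axis), by line (horizontal axis). Each point is a probe, blue in WT and red in ECAT11EGFP/EGFP lines, and black bars are medians, which lie between -0.05 and 0.12 with #757-1 highest.

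Differences between the genotypes were tested by limma over all 28972 probes kept, and p was adjusted by Benjamini-Hochberg. Ribosomal proteins were slightly higher in ECAT11EGFP/EGFP ESCs in most probes, but none passed the test. A probe was called where the adjusted p was under 0.05 and the groups were over 2-fold apart, and limma called 0 of the 137 member probes, where 0.00345% of all probes were called. At an unadjusted p under 0.05 there were 0 members either, against 7.60% of all probes (4.07% higher and 3.53% lower). Without adjustment 5 members passed 0.05 in the methods' t-test, where 7.31% of all probes did, and 4 in limma with a variance trend, where 7.06% did. After adjustment 0 passed in either. The smallest adjusted p of a member from limma was 0.721.

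The log2 difference, ECAT11EGFP/EGFP minus WT, was above 0 for 109 of the 137 probes and below 0 for 28. Its median was 0.07, against -0.02 over all probes kept. The share above 0 depended on the scaling: among the 134 probes well above background throughout, 108 were above 0 in the main values and 82 after quantile normalization, where the median was 0.02. The genotype groups did not overlap for 23 of the 134 probes that were higher in ECAT11EGFP/EGFP lines (17.2%, against 11.9% of all probes). They did not overlap for 3 that were lower (2.24%, against 11.1%). These 3 were probes of Rps18, Rps3a and Rps19bp1, the last of which is no subunit, and the last 2 were looked up after their values were seen. On slide 1, where #620-6 can be set against both WT lines, the median difference was 0.01 and 70 of 134 probes were above 0. A block for the slide gave a median of 0.01 too, and leaving out #757-1 gave 0.03. The fibroblast markers described below had a median genotype difference of -0.68, with 12 of 14 probes lower, and their part in these values was not tested. Their summed linear signals were 17.5 in RF8, 59.0 in #620-2, 61.6 in #620-6, 3.01 in #757-1 and 5.40 in #757-2. Fewer of their probes were well above background in the #757 lines.

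Both subunits gave nearly equal medians. For the small subunit list, 45 of 56 probes were above 0 with a median of 0.07, and for the large subunit list 66 of 79 with a median of 0.07. Translation factors of the TOP type, among them elongation factors and Npm1, had 22 of 33 probes above 0 and a median of 0.06. The mitochondrial ribosome, which is encoded by other genes, had 63 of 125 above 0 and a median of 0.00. Ribosome assembly factors had 33 of 68 above 0 with a median of -0.01, and RNA polymerase I and its factors, which transcribe ribosomal RNA, 15 of 26 with a median of 0.02. None of these lists held a called probe. At an unadjusted p under 0.05 the polymerase I list had 2 lower probes (Cd3eap and Ttf1), and the list of TOP regulators and S6 kinases had 1 higher (Rps6ka5) and 1 lower (Eif4ebp2), where 4.07% of all probes were higher and 3.53% lower. In that list 21 of 40 probes were above 0 and the median was 0.01.

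Rpl30, a large subunit protein, had the largest difference between genotypes and the largest range over the lines among members detected throughout. Its only probe (chr15:34549505-34549564, mm7) gave signals of 3.71 in RF8, 4.78 in #620-2, 4.84 in #620-6, 5.18 in #757-1 and 5.07 in #757-2. RF8 was the low line, and #620-2 lay just under the lowest ECAT11EGFP/EGFP line, so the groups did not overlap. The means were 4.24 ± 0.76 (SD, n = 2) in WT and 5.03 ± 0.18 (SD, n = 3) in ECAT11EGFP/EGFP ESCs. The log2 difference was 0.79 with an SE of 0.36 and an adjusted p of 0.740 from limma, which is 1.73-fold. Without RF8 it was 0.25, and without #620-2 it was 1.32.

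Small subunit genes gave the next differences, each in a dim or secondary probe. The second probe of Rps15a (chr7:114027381-114027440, mm7) gave -3.81 in RF8, -3.53 in #620-2, -3.43 in #620-6, -2.50 in #757-1 and -2.85 in #757-2, a difference of 0.75 with an SE of 0.33 and an adjusted limma p of 0.721, or 0.47 with normexp background correction. The brightest Rps15a probe ran from 7.13 to 7.39 and differed by 0.11. The second probe of Rps25 (chr9:44344509-44344568, mm7) gave -1.64, -1.69, -1.42, -0.52 and -1.11 in the same order of lines, a difference of 0.65 with an adjusted limma p of 0.747 and of 0.40 without #757-1, while the brightest Rps25 probe differed by 0.07. In both secondary probes the lines of slide 2 stood above the lines of slide 1, and the brightest probe of the same gene did not repeat the size of the difference.

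A further probe of Rps21 (chr2:180759292-180759349, mm7) went the other way. It gave 4.24 in RF8, 4.52 in #620-2, 4.31 in #620-6, 3.54 in #757-1 and 3.52 in #757-2. The #757 lines were low and #620-6 lay between the WT lines, so the genotype groups overlapped. The log2 difference was -0.58 with an adjusted limma p of 0.783, while the brightest Rps21 probe differed by 0.03 and the third by 0.19. Slide 2, the #757 line number and these values cannot be told apart.

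Rps27a, which encodes a fusion of ubiquitin and a small subunit protein, has a single probe. Its signals were 5.55 in RF8, 5.74 in #620-2, 5.79 in #620-6, 6.08 in #757-1 and 6.11 in #757-2, and the groups did not overlap. The difference was 0.35 with an SE of 0.18 and an adjusted limma p of 0.776. The brightest Rps13 probe gave 7.03, 7.09, 7.03, 7.55 and 7.44, with #620-6 at the level of RF8 and the #757 lines above, and its second probe differed by -0.13 where the first differed by 0.28. Without #757-1 the first differed by 0.17, and without #620-6 by 0.43. The Rps18 probe whose groups did not overlap gave -0.99 and -1.11 in WT lines and -1.36, -1.29 and -1.46 in ECAT11EGFP/EGFP lines, a difference of -0.32 with an adjusted limma p of 0.742. The other Rps18 probes, both much brighter, differed by 0.03 and -0.01.

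**Figure D2:**
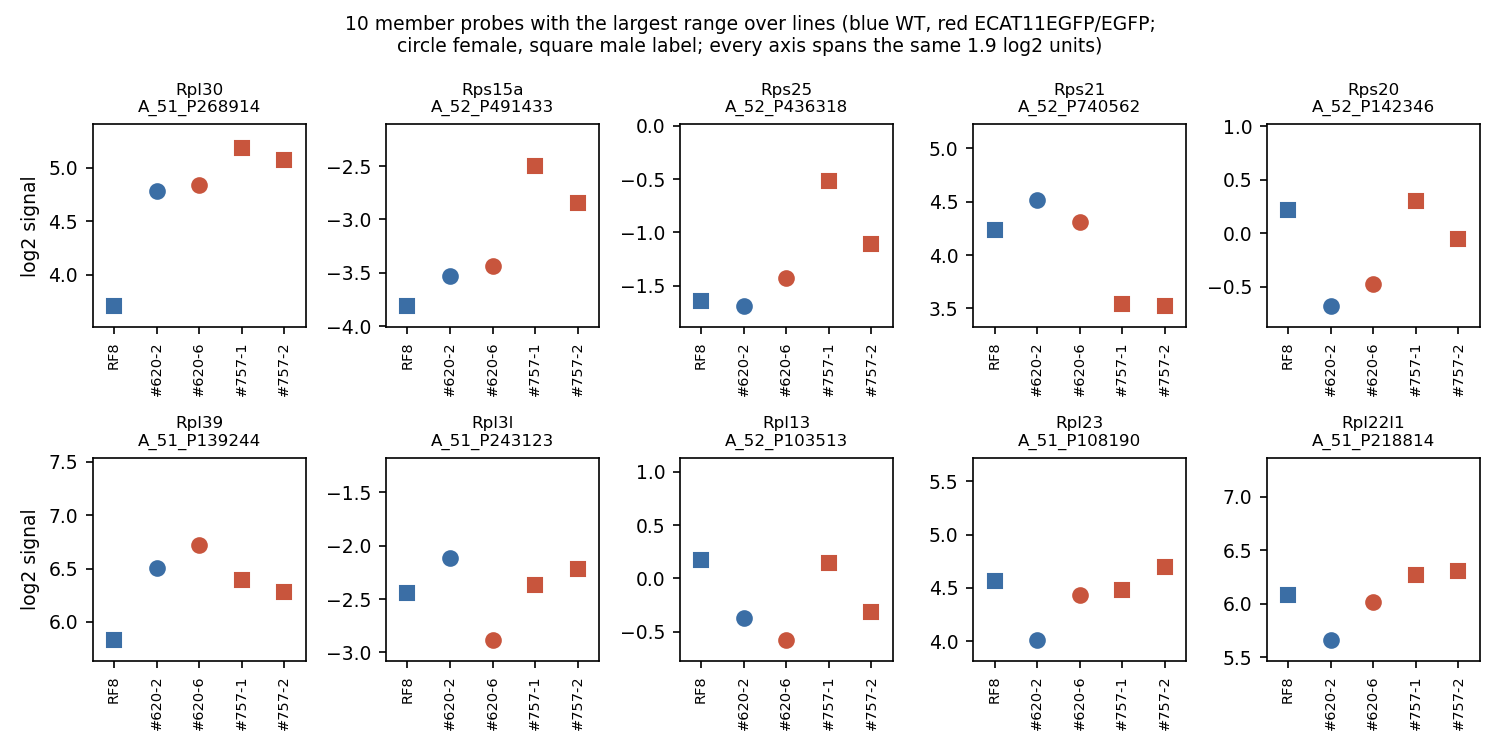
Log2 signal (vertical axis) in each line (horizontal axis) for the 10 member probes with the largest range over the lines, blue for WT and red for ECAT11EGFP/EGFP, circles for the female and squares for the male label. Rpl30 was low in RF8, Rps15a and Rps25 were highest in #757-1, and Rps21 was low in both #757 lines.

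Probes of the same gene often went apart between genotypes. Of the 40 genes with more than 1 probe well above background on all arrays, 25 had all their probes on the same side of 0. The genes Rpl29 and Rpl35a were among them: the 4 probes of Rpl29 differed by between 0.07 and 0.23, and those of Rpl35a by 0.23 and 0.10. Of the 136 member probes with a position, the Rplp0 probe alone lay on another chromosome than its RefSeq gene. A pair of further Rplp0 probes carry the older name Arbp and fall outside the name rule, and they ranged by 0.17 and 0.26 over the lines.

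The sex label divides the lines in another way, with #620-2 and #620-6 labelled female. Both also share a line number and slide 1, and these cannot be told apart from the label. Ribosomal proteins outside the X chromosome were slightly lower in the female-labelled lines, and those on the X chromosome were mostly higher, without passing the test. With limma, 0 of 137 members were called, where 0.342% of all probes were. At an unadjusted p under 0.05 there was 1 member, against 18.0% of all probes (9.62% higher and 8.39% lower), while 11 members passed unadjusted in the methods' t-test (16.2% of all probes) and 19 in limma with a variance trend (19.5% of all probes), with 0 called in either after adjustment. The difference, female minus male label, was above 0 for 36 and below 0 for 101 members. Its median was -0.06, against -0.02 over all probes kept. Among probes well above background on all 5 arrays it was -0.061 for members and -0.045 for all, so most of this shift was shared with other detected probes. A block for the slide turned the median of the members to 0.02, and leaving out #757-1 brought it to -0.01. Within slide 1 it was 0.02, with 79 of 134 probes above 0. The groups did not overlap for 14 higher members (10.4%, against 17.5% of all probes) and for 27 lower ones (20.1%, against 23.5%).

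The member with the smallest p was a second probe of Rps20, a small subunit protein. Its signals were 0.22 in RF8, -0.68 in #620-2, -0.48 in #620-6, 0.30 in #757-1 and -0.06 in #757-2. Both female-labelled lines lay under all others. The difference was -0.73 with an adjusted limma p of 0.155, and that of the brightest Rps20 probe was -0.05.

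Markers of fibroblasts, the feeder cells on which such lines are derived, were mostly higher in the female-labelled lines, and also differed between the slides. Of 14 probes kept for 10 markers, 9 were higher in the female-labelled lines and 5 lower, with a median difference of 1.05, and S100a4 was called. Their signals, summed on the linear scale relative to the 75th percentile, were 59.0 and 61.6 in the female-labelled lines. They were 17.5 in male-labelled RF8, also on slide 1, and 3.01 and 5.40 in #757-1 and #757-2 on slide 2. The parts of label and slide in these sums were not tested. Each of the 10 markers had a probe that was kept, and 13 of their 19 probes were well above background in RF8, #620-2 and #620-6, 10 in #757-1 and 11 in #757-2. The part of these cells in the values of ribosomal proteins was not tested.

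The X-linked members were Rpl10, which joins the large subunit late in its assembly, Rpl36a and Rpl39 of the large subunit, and Rps4x of the small subunit. The brightest Rpl10 probe gave 6.89 in #620-2 and 7.10 in #620-6, against 6.72 in RF8, 6.82 in #757-1 and 6.69 in #757-2. Its other probe gave 6.59 and 6.80 in the female-labelled lines and 6.32, 6.48 and 6.38 in the others. Both probes were highest in #620-6, the groups did not overlap, and the differences were 0.25 and 0.30, with adjusted p of 0.427 and 0.357 from limma. Without #620-6 they were 0.14 and 0.20. The longest stretch that the probes share exactly is 12 bases, in capitals in their sequences of 60 bases. The bases after it are also nearly alike up to the end of the brightest probe, so the probes cover overlapping sequence. The second lies at chrX:69659408-69659467 of mm7, plus strand, and the file gives no position for the first, which was designed on another accession.
Rpl10, brightest probe: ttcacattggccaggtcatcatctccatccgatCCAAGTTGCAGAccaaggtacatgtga
Rpl10, other probe: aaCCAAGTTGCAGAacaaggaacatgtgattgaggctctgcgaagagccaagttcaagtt

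Rpl36a was higher in both female-labelled lines in all 3 of its probes. The brightest gave 7.56 in #620-2 and 7.51 in #620-6, against 7.15 in RF8, 7.34 in #757-1 and 7.13 in #757-2. The groups did not overlap, with means of 7.53 ± 0.04 (SD, n = 2) and 7.21 ± 0.11 (SD, n = 3). The difference was 0.32 with an SE of 0.14 and an adjusted limma p of 0.316, or 1.25-fold, and those of the other probes were 0.29 and 0.17. Rpl39 gave 6.51 in #620-2 and 6.72 in #620-6, against 5.83 in RF8, 6.39 in #757-1 and 6.28 in #757-2. Its groups did not overlap either, RF8 lay far under the other male-labelled lines, and the difference was 0.45 with an SE of 0.22 and an adjusted limma p of 0.374. Without RF8 it was 0.28.

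Rps4x did not share this order. Its brightest probe gave 6.89 in #620-2 and 6.85 in #620-6, between 6.76 in RF8 and 7.03 in #757-1 and 6.98 in #757-2. The difference was -0.05 with an SE of 0.15 and an adjusted limma p of 0.886, and its direction turned without #757-1. Its dim second probe, which has no position, differed by -0.20, by -0.42 without #620-2, by -0.09 without #757-1 and by 0.02 without #620-6. Within slide 1 the brightest Rps4x probe differed by 0.11 and the dim one by -0.17. The median difference of the 8 X-linked member probes within slide 1 was 0.32 and 7 were above 0. Over all chromosome X probes well above background on all arrays it was 0.53.

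**Figure D3:**
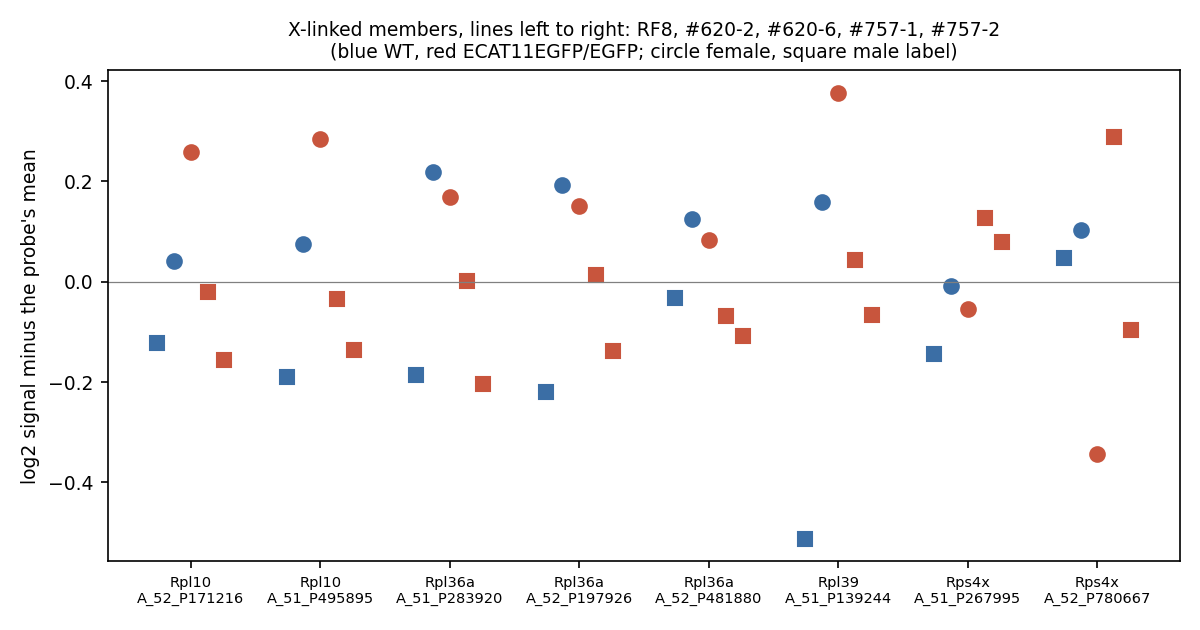
Log2 signal of the 8 X-linked member probes, each minus its mean over the 5 lines (vertical axis), by probe (horizontal axis), with circles for lines labelled female, squares for male, blue for WT and red for ECAT11EGFP/EGFP. For Rpl10, Rpl36a and Rpl39 both circles lie above all squares, and for Rps4x they do not.

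Set against all probes of their chromosomes, the members moved to the same side where a chromosome as a whole stood away from 0. Members were placed by the chromosome of their gene and all probes by their own position, which 2 of the X-linked member probes lack. Over 707 probes of chromosome X well above background on all arrays, the median female minus male difference was 0.53. Over the 8 member probes of X-linked genes it was 0.27. Over 1082 probes of chromosome 8 it was -0.36, and over the 4 member probes there it was -0.32. Over 1718 probes of chromosome 11 it was -0.21 and over the 10 member probes there -0.16, and on chromosome 10 the medians were -0.14 for 946 probes and -0.21 for 5 member probes. All 4 members on chromosome 8, all 10 on chromosome 11 and all 5 on chromosome 10 were lower in the mean of the female-labelled lines, except that 1 on chromosome 11 was not with normexp and 2 were not after quantile normalization. On chromosomes 10 and 11 the low values lay mostly with #620-2. With each probe set to its own mean, all chromosome 11 probes had medians of -0.25 in #620-2 and -0.0016 in #620-6. The members there had -0.10 and -0.04. On chromosome 10 the medians were -0.14 and -0.04 for all probes and -0.28 and -0.02 for members. Male-labelled #757-1 lay under #620-6 over all chromosome 11 probes (-0.07), as did RF8 over the chromosome 10 members (-0.04). On the other chromosomes with members, the median over all probes lay between -0.10 and 0.05. These chromosomes were picked out after their medians had been seen, and no test was made of them.

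Rpl13 on chromosome 8 encodes a large subunit protein. Its brightest probe gave 7.61 in RF8, 7.47 in #620-2, 7.46 in #620-6, 7.72 in #757-1 and 7.59 in #757-2, and the second gave 7.53, 7.19, 7.23, 7.58 and 7.45 in the same order. The #620 lines were the lowest and the groups did not overlap. By line, with each probe set to its own mean, all chromosome 8 probes had medians of 0.24 in RF8, -0.18 in #620-2, -0.24 in #620-6, 0.19 in #757-1 and 0.02 in #757-2. For the 4 member probes it was 0.09, -0.19, -0.17, 0.23 and 0.04. Within slide 1, the female minus male medians on chromosome 8 were -0.28 for the members and -0.47 for all probes. On chromosome 11 they were -0.06 for the members and -0.29 for all probes, and 3 of the 10 members were then above 0.

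**Figure D4:**
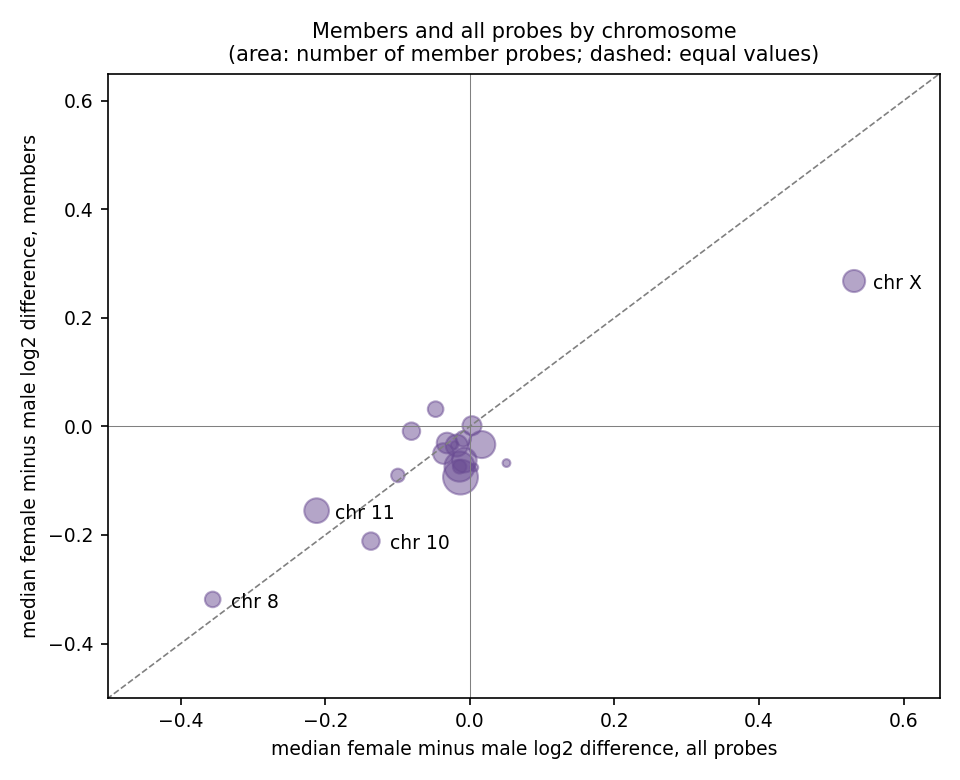
Median female minus male difference in log2 signal of all probes of a chromosome (horizontal axis) against that of its member probes (vertical axis), 1 circle per chromosome with an area that follows its number of member probes. Chromosome X lies to the upper right at 0.53 and 0.27, and chromosome 8 to the lower left at -0.36 and -0.32.

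Paralogues were compared as ratios within an array, with the brightest probe of each gene. Such a ratio shows whether the genes change unequally between lines, and its level depends on the probes. For 7 pairs both probes were well above background on all 5 arrays. Rpl39l and Rps4l, which the files list under older names, were found through their accessions and are outside the name rule, and no probe named Rpl10l was found. With 2 lines against 3, the 2-sided exact permutation test has 10 splits and cannot give a p below 0.1. The smallest adjusted p over the 7 pairs was 0.7 between genotypes and 0.175 between sex labels, so no ratio passed.

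Rpl22, which binds RNA in the large subunit, and Rpl22l1 are shown by their probes, with the longest run of bases they share in capitals. The Rpl22 probe lies at chr4:151319591-151319650 and the Rpl22l1 probe at chr3:28622984-28623043 of mm7, both on the plus strand.
Rpl22: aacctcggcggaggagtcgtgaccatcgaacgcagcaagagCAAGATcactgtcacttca
Rpl22l1: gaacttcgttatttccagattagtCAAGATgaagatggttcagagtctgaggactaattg
Rpl22 gave 7.03 in RF8, 7.09 in #620-2, 6.99 in #620-6, 7.18 in #757-1 and 7.02 in #757-2. Rpl22l1 gave 6.08, 5.66, 6.02, 6.27 and 6.31 in the same order, so the paralogue varied more and was lowest in #620-2. The log2 ratio was highest in #620-2, and the ECAT11EGFP/EGFP minus WT difference of the ratio was -0.32 (exact permutation p = 0.2, adjusted p = 0.7). It was -0.08 without #620-2 and -0.56 without RF8. Between sex labels the ratio was higher in the female-labelled lines by 0.34 (exact permutation p = 0.1, adjusted p = 0.175), without #620-2 by 0.12 and without #620-6 by 0.57, and the groups did not overlap. A second, dimmer Rpl22 probe gave 2.63 and 2.85 in WT lines and 2.84, 3.16 and 3.20 in ECAT11EGFP/EGFP lines. That probe and the Rpl22l1 probe each differed by 0.32 between genotypes, with adjusted p of 0.812 and 0.835 from limma. Without #620-2 the Rpl22l1 difference was 0.11, and without RF8 it was 0.53.

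Rpl3, which lies near the site of peptide bond formation, and its muscle paralogue Rpl3l are likewise shown by their probes. The longest shared run is 5 bases. The Rpl3l probe maps to chromosome 17 and that of Rpl3 to chromosome 15.
Rpl3: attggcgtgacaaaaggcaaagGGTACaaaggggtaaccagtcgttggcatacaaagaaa
Rpl3l: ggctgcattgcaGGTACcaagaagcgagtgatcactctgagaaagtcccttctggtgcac
Rpl3l was well above background in all lines, at -2.44 in RF8, -2.11 in #620-2, -2.88 in #620-6, -2.37 in #757-1 and -2.21 in #757-2. Rpl3 stayed between 7.32 and 7.59. Both genes were lowest in #620-6, and the ratio ranged by 0.65 over the lines. Its genotype difference was 0.26 (exact permutation p = 0.4), and it was 0.11 without #620-2, 0.41 without RF8, 0.14 without #620-6 and 0.17 after quantile normalization.

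Rpl36a over Rpl36al followed the sex label, with Rpl36al nearly level at 5.76, 5.65, 5.73, 5.80 and 5.73 in RF8, #620-2, #620-6, #757-1 and #757-2. The log2 ratio was 1.91 and 1.78 in the female-labelled lines and 1.39, 1.54 and 1.40 in the others, which did not overlap. The difference was 0.40 (exact permutation p = 0.1, the smallest possible, adjusted p = 0.175). Rps4x over Rps4l differed by -0.27 between the labels (exact permutation p = 0.1, adjusted p = 0.175), with Rps4l at 6.82 in RF8, 7.32 in #620-2, 7.15 in #620-6, 7.16 in #757-1 and 7.06 in #757-2. Its groups did not overlap either. The X-linked partner thus had the higher relative signal in female-labelled lines in the first pair and the lower in the second.

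Rpl39l varied most of the paralogues. Its brighter probe gave 2.37 in RF8, 2.92 in #620-2, 4.12 in #620-6, 3.07 in #757-1 and 3.27 in #757-2, and its dimmer probe gave -2.46, -1.75, -0.47, -1.62 and -1.36. Both probes were lowest in RF8 and highest in #620-6, over ranges of 1.75 and 1.99. The limma difference between genotypes was 0.84 with an SE of 0.40 and an adjusted p of 0.745 for the brighter probe. Rpl39 was also lowest in RF8 and highest in #620-6 but ranged by 0.89, and the log2 ratio of Rpl39 over Rpl39l was 3.46, 3.59, 2.60, 3.32 and 3.01. Its genotype difference was -0.55 (exact permutation p = 0.2, adjusted p = 0.7), and without #620-6 it was -0.36.

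The ratios of the other pairs had the smallest ranges among the 7. Rps27 over Rps27l, whose paralogue is a target of p53, ranged by 0.15 over the lines, from 0.84 in #620-6 to 0.99 in #757-2. Its genotype difference was 0.01 and its difference between sex labels was -0.10 (exact permutation p = 0.1, adjusted p = 0.175). The sex label groups did not overlap, with 0.88 in #620-2 and 0.84 in #620-6, against 0.95 in RF8, 0.94 in #757-1 and 0.99 in #757-2. Rpl7 over Rpl7l1 ranged by 0.24, with a genotype difference of -0.11 (exact permutation p = 0.4), which was -0.06 without #620-6 and -0.18 without #757-1. Rpl7l1 itself was 3.38 and 3.36 in WT lines and 3.56, 3.57 and 3.61 in ECAT11EGFP/EGFP lines, which did not overlap. Its second probe overlapped between genotypes.

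**Figure D5:**
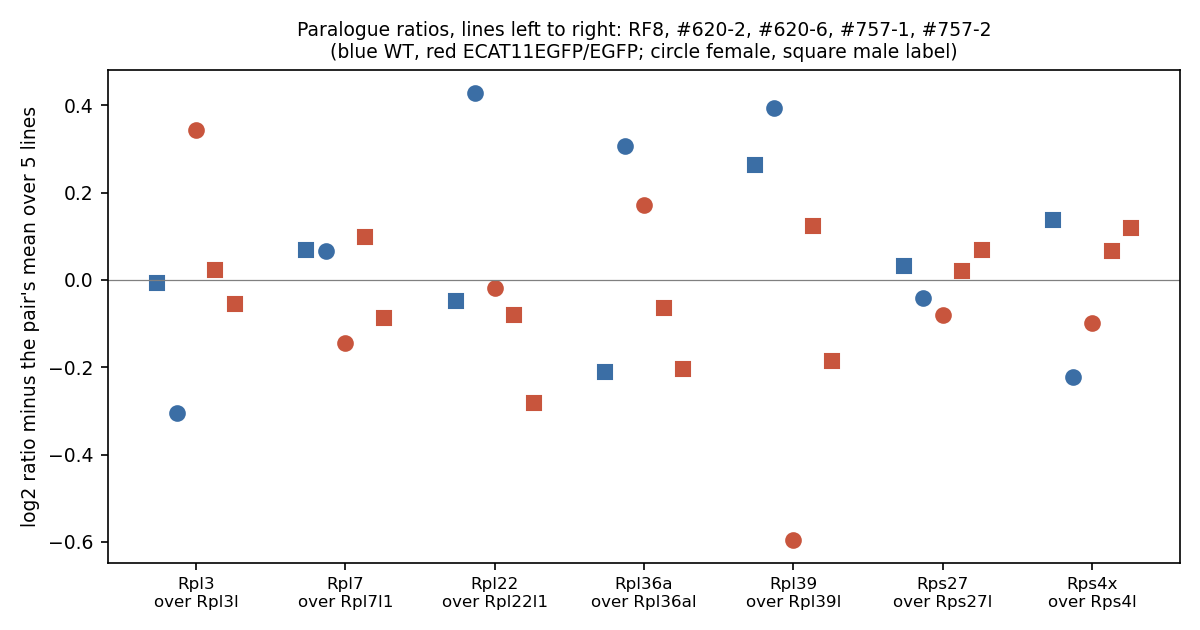
Log2 ratio of a gene over its paralogue within each array, minus the mean of that pair over the 5 lines (vertical axis), for 7 pairs (horizontal axis), with circles for lines labelled female, squares for male, blue for WT and red for ECAT11EGFP/EGFP. Rpl39 over Rpl39l has its lowest point in #620-6, and both circles lie above all squares for Rpl36a over Rpl36al.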

How the data were processed

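Per the file headers, the authors obtained 5 one-colour scans, read by Feature Extraction 9.5.3.1, and the deposited intensity per spot is background-corrected but not normalized between arrays. The authors also deposited a log2 table of the same arrays, scaled to the 75th percentile and centred by probe, which served as an alternative. Here control spots were left out, spots marked non-uniform or as outliers (0.335%) were set missing, intensities were divided by each array's 75th percentile, log2 was taken and spots of a probe were averaged. As in the methods, a probe needed a Present flag in 1 or more lines (28972 of 41174 passed). Groups were compared with limma 3.58.1 (R 4.3.3) and Benjamini-Hochberg adjustment, with calls at an adjusted p under 0.05 and over 2-fold. These values also went through the methods' t-test. Ratios of paralogues were tested by exact permutation. Probe positions are those of mm7 in the files. Chromosomes of genes and promoters are from RefSeq (GRCm38.p6), which named 116 of 138 member probes by accession and the rest by symbol. The genes named were paralogue pairs, X-linked members, members not detected throughout, and the 10 probes with the largest genotype difference and the 10 with the largest range. The members and lists were chosen with earlier results of these data known. The code was tested on simulated data. The alternatives were normexp background correction (offset 50), quantile normalization, other filters, the slide or the other label in the fit, a variance trend, and leaving out each line. Values within slide 1 were added after the data were seen. Some items are not reported here. ECAT11 itself is not analysed here, so the genotype labels were not checked by its signal.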

Additional observations from a re-analysis of the deposited data

How the results depend on the processing

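No member was called under any alternative in either comparison. The median genotype difference of the members stayed above 0, at 0.01 with the slide as a block, 0.02 after quantile normalization, 0.06 to 0.07 in the other settings with all lines, and 0.03 to 0.11 with 1 line left out. Between sex labels the median was -0.06 and moved to 0.019 with the slide as a block, was -0.03 after quantile normalization, and lay between -0.11 and -0.01 with 1 line left out. The ratio of Rps27 over Rps27l between genotypes turned to -0.0017 after quantile normalization and that of Rpl3 over Rpl3l between sex labels to -0.018 with normexp. With 1 line left out, these ratios lay between -0.028 and 0.050 and between -0.29 and 0.36. Other ratios that turned with 1 line left out were, between genotypes, Rpl36a over Rpl36al (-0.34 to 0.18) and Rps4x over Rps4l (-0.11 to 0.25), and between sex labels Rpl7 over Rpl7l1 (-0.17 to 0.039) and Rpl39 over Rpl39l (-0.66 to 0.33). Among single probes, Rpl39 between genotypes (-0.042 to 0.63) and the Rps4x probes between sex labels (-0.13 to 0.0015 and -0.42 to 0.024) turned in the same way. No paired analysis was made. The replicate numbers were given here in accession order and pair no lines. Across the genotypes only #620-2 and #620-6 share a line number, sex label, origin and slide, and a single pair allows no test. Their member medians, with each probe set to its own mean over the lines, were -0.02 in #620-2 and -0.05 in #620-6. Dim probes limit what slide 2 shows, where the lowest signal well above background was -4.49 and -4.22, against -6.22 to -5.90 on slide 1.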

Other observations

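A subunit gene can fall outside the name rule where its probes carry another name in the files. Rpl34, a large subunit gene listed as 1100001I22Rik, gave 7.38 in RF8, 7.39 in #620-2, 7.41 in #620-6, 7.70 in #757-1 and 7.56 in #757-2 with its brighter probe, which was highest in #757-1.

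Ribosome assembly factors had 6 probes higher and 4 lower in the female-labelled lines at an unadjusted limma p under 0.05, of 68 probes kept, and none was called. Over all probes these shares were 9.62% and 8.39%, so the count of the factors was not above that of all probes. Dkc1 and Las1l lie on chromosome X, where all probes had a median difference of 0.53. Dkc1, the pseudouridine synthase of ribosomal RNA, gave 2.46 in #620-2 and 2.71 in #620-6 against 2.13, 2.13 and 2.05 in RF8, #757-1 and #757-2 with its brighter probe. Las1l, which takes part in the cutting of precursor ribosomal RNA, gave 4.52 and 4.64 against 4.09, 3.90 and 4.03. The groups did not overlap for either gene, which was so for 17.5% of all probes with higher values in these lines, and the limma adjusted p was 0.205 and 0.154.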
